A study of Oryza sativa Japonica Group with 18 samples.

Results

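A group of 55 rice genes had next to no transcript in any leaf library of plants overexpressing OsERF096 (OX), and had transcript in every wild-type (WT) library. They were chosen from the measured values, as all genes of the table with an FPKM under 0.5 in all 6 OX libraries and of at least 1 in all 6 WT libraries. FPKM is the number of sequenced fragments scaled to transcript length and to the library's total. The rule kept 55 of 38610 genes. They were 0.325% of the 16935 genes that reached 1 FPKM in all 6 WT libraries, which are called here genes expressed throughout WT. Since the rule set OX against WT, the difference between these lines in the 55 genes is a description and was not tested.

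The libraries came from leaves at the 3-leaf stage of OX (OsERF096-OX), of plants with an RNA interference construct against the same gene (RNAi, OsERF096-RNAi) and of WT. Leaves of each line were frozen after 12 h at 4 °C (cold) or from normal growth (control), with 3 libraries in each of the 6 groups. The sources used here do not state the rice cultivar, the promoter of the transgene, how many independent transformants stand behind each line or whether plants were pooled. No label says that replicates came from separate plants, so a p-value compares a difference with the scatter among libraries, some of which may be technical. OsERF096 itself was not analysed here, and neither transgenic line could be checked by the level of its target.

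Ethylene response factors are transcription factors that bind promoters of genes for hormone and stress responses, and OsERF096 is a member of that family. Overexpression raises a gene's transcript, while RNA interference lowers it by cutting matching RNA. Rice locus IDs carry their position: the digits before the g are the chromosome and the digits after it rise along it, so that genes with near numbers are neighbours. Rice chromosomes 11 and 12 are known for clusters of related disease resistance genes, and whether any member belongs to one is not known here. None of the 55 IDs could be matched to a name in the reference gene table (assembly ASM3414082v1), so the genes are described by ID, position and level, and no function is given.

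Absolute read totals are unknown, and relative depth, read from steps among low values, ran from 0.896 to 1.44 with the median library at 1. The genes RCA (Rubisco activase, Os11g0707000), CAB1R (Os09g0346500) and CAB2R (Os01g0600900), the last pair for chlorophyll-binding antenna proteins, ranged from 2840 to 7034, from 398 to 5062 and from 2276 to 15724 FPKM over all libraries, as leaf tissue would show. WT control replicate 2 stood apart, with a mean correlation of 0.92 to the rest of its group, against 0.948 and 0.952 for the other WT control libraries and 0.96 to 0.983 for the remaining 15. Summed over the 55 genes it held 673 FPKM, against 672 and 616 FPKM in the other WT control libraries. The sources used here do not say how reads were divided among near-identical copies of a gene, and members next to each other may be such copies. In bulk leaf RNA, fewer cells of a type and less RNA per cell cannot be told apart.

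In OX leaves the 55 genes together summed to 0.335, 0.568 and 0.68 FPKM in the cold, and to 2.39, 1.09 and 1.48 FPKM before it. In RNAi leaves they summed to 453, 519 and 473 FPKM in the cold and to 653, 549 and 573 FPKM before it. In WT leaves the sums were 556, 492 and 533 FPKM in the cold and 672, 673 and 616 FPKM before it. By the rule no OX library held a member at 1 FPKM or more. RNAi libraries, which the rule did not use, held 46 to 50 of the 55 at that level. Of the 330 values in OX libraries 269 (81.5%) were exactly 0, and 30 genes were listed at 0 in all 6. No member was at 0 in any WT library, which the rule requires. Of the 6813 genes with at least 10 FPKM in 17 or more libraries only 1 was listed at 0 in some library. That choice allows a gene no more than 1 library at 0, and 41 members had a WT mean under 10 FPKM. It is therefore no measure of how unusual the zeros of the members are.

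**Figure D1:**
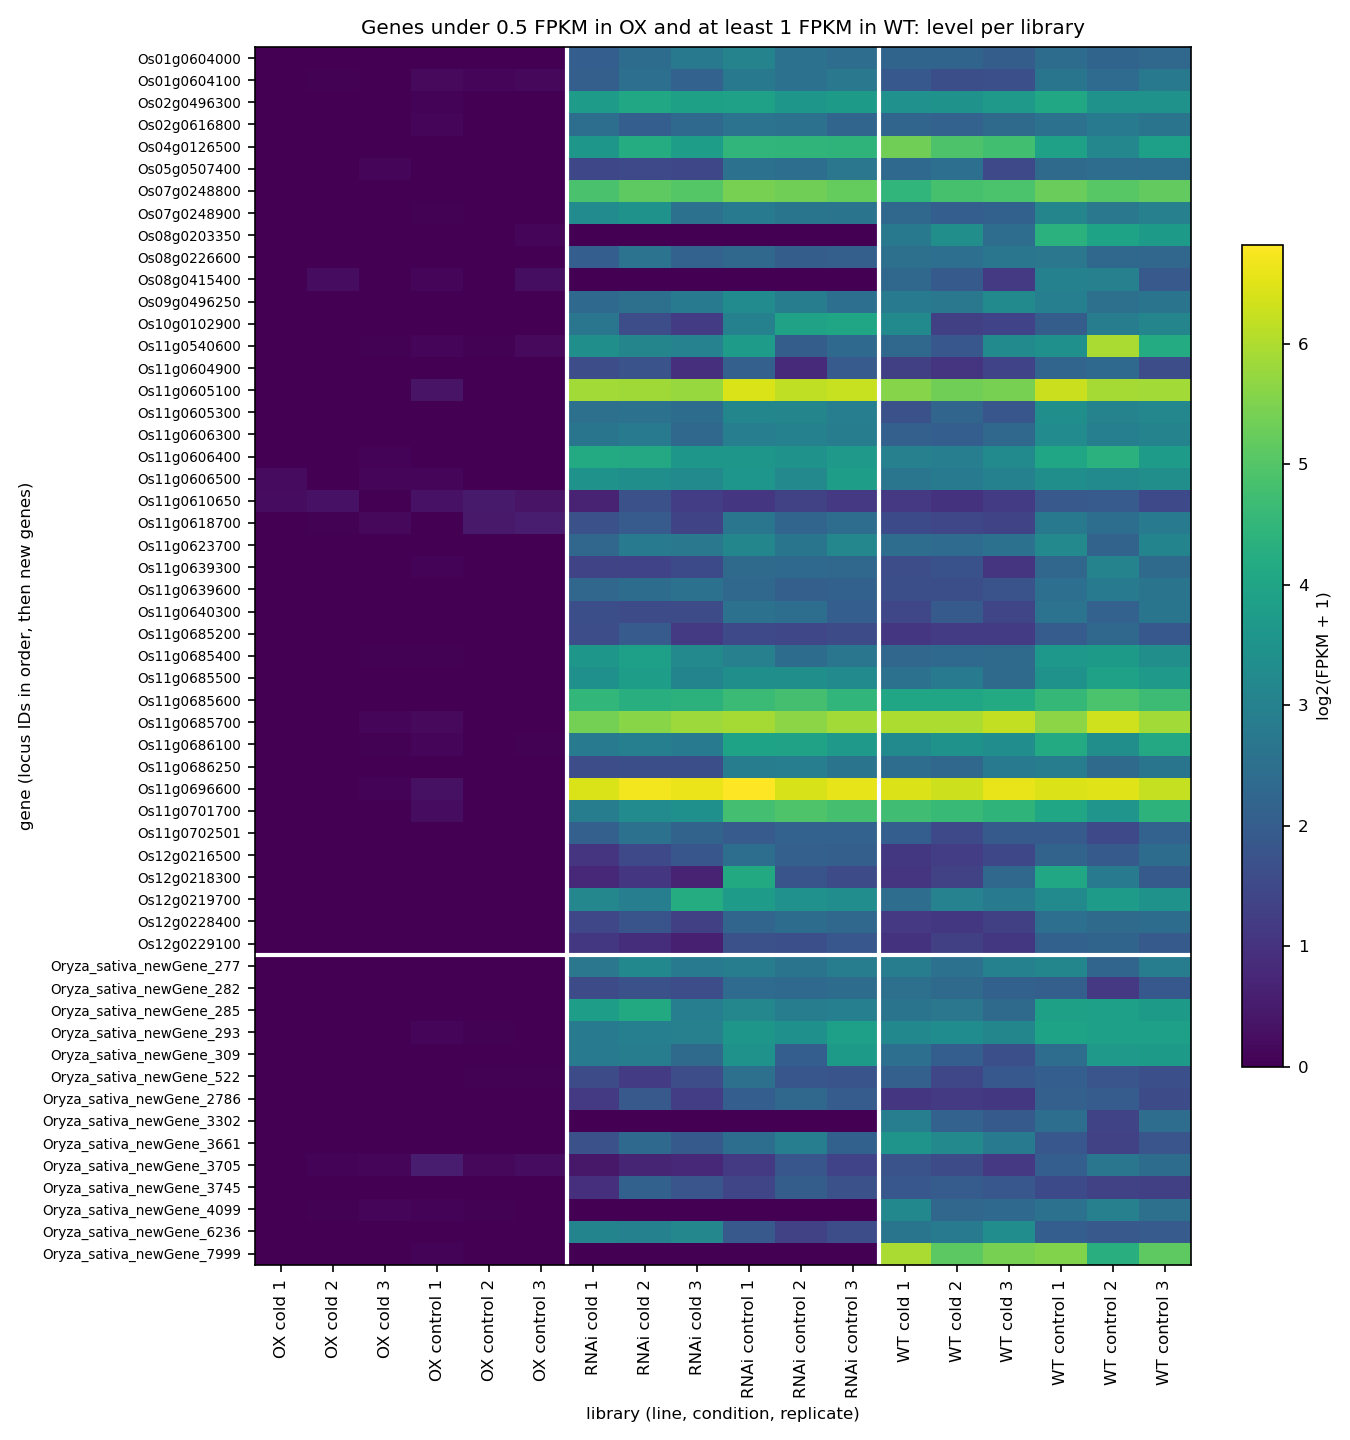
Level of each of the 55 genes (down) in each of the 18 libraries (across, OX, RNAi and WT, cold before control), as log2(FPKM + 1) on the colour scale. The 6 OX columns are dark throughout, with no value above 0.454 FPKM, and 5 genes are dark in the 6 RNAi columns as well.

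Most members were weakly expressed in WT. Their mean over the 6 WT libraries had a median of 5.16 FPKM and ranged from 1.82 to 84.9 FPKM, against a median of 12 FPKM for all genes expressed throughout WT, and 14 members reached 10 FPKM. In OX 44 members stayed under 0.1 FPKM in every library and 11 came closer to the limit of the rule. Inside that limit, the highest OX values were 0.454 FPKM for Oryza_sativa_newGene_3705, 0.442 FPKM for Os11g0618700 and 0.406 FPKM for Os11g0610650. Just outside it were Os04g0119800, Os11g0684100 and Oryza_sativa_newGene_8025, whose highest OX values were 0.537, 0.544 and 0.549 FPKM. On the WT side the lowest values inside were 1.0 FPKM for Os11g0610650, 1.01 FPKM for Os12g0229100 and 1.03 FPKM for Os11g0639300. Just outside were Oryza_sativa_newGene_3625 at 0.954 FPKM, Oryza_sativa_newGene_8003 at 0.938 FPKM and Os11g0100100 at 0.921 FPKM.

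The strongest member was Os11g0696600. It had 0, 0 and 0.0506 FPKM in cold OX leaves and 0.225, 0 and 0 FPKM in OX control leaves, against 86.8, 77.1 and 94.7 FPKM in cold WT leaves and 87.1, 89.3 and 74.1 FPKM in WT control leaves. RNAi leaves held it at 84.9, 102 and 98.2 FPKM in the cold and 112, 84.3 and 93.6 FPKM before it, within or close to the WT range. Os11g0685700 followed with 0, 0 and 0.0806 FPKM in cold OX and 0.129, 0 and 0 FPKM in OX control leaves, against 62.7, 62.6 and 72.8 FPKM in cold WT and 48.2, 79.2 and 57.3 FPKM in WT control leaves. The groups of OX and WT are far apart in both genes, as the rule requires.

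Os11g0605100 was at 0 in all cold OX libraries and at 0.286, 0 and 0.0115 FPKM in OX control leaves, against 47.3, 39.9 and 42.1 FPKM in cold WT and 75.8, 59.1 and 57.9 FPKM in WT control leaves. Os07g0248800 and Os11g0685600 were at 0 in all 6 OX libraries. Their RNAi means were 35.2 and 22.1 FPKM, and their WT means 30.4 and 20.5 FPKM. Os11g0701700, Os11g0540600 and Os11g0686100 had at most 0.179, 0.131 and 0.09 FPKM in any OX library, against WT means of 19.4, 17.2 and 11.8 FPKM.

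Members with a locus ID were unevenly spread over the chromosomes. Of these 41 genes 23 (56.1%) lay on chromosome 11, which holds 4.85% of the locus IDs expressed throughout WT. On that chromosome 2.88% of the genes expressed throughout WT were members. Chromosome 12 held 5 members (0.549% of its genes expressed throughout WT), chromosome 8 held 3 (0.281%), chromosomes 1, 2 and 7 held 2 each and chromosomes 4, 5, 9 and 10 held 1 each. Chromosomes 3 and 6 held none, though 2317 and 1334 of their genes were expressed throughout WT.

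**Figure D2:**
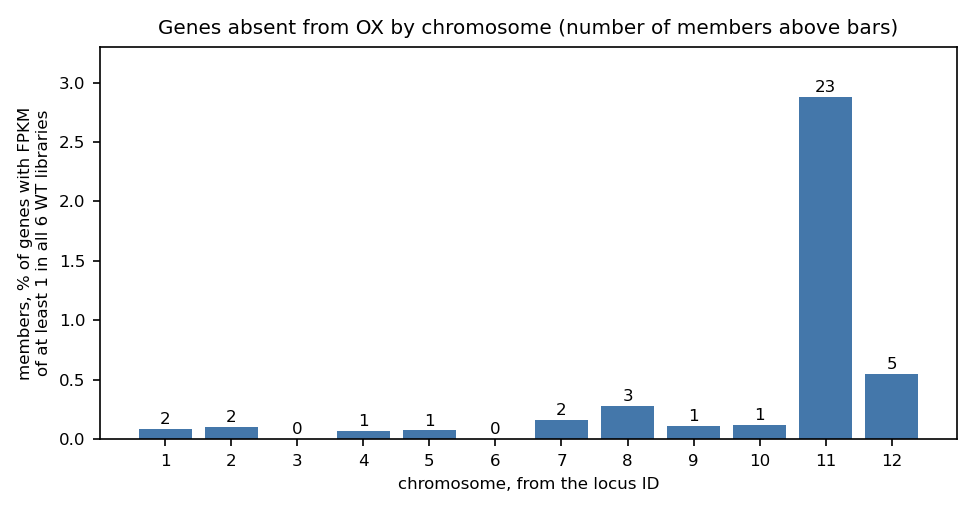
Members as a percentage of the genes expressed throughout WT, by chromosome (bars), with the number of members above each bar. Chromosome 11 reached 2.88%, chromosome 12 0.549% and each other chromosome 0.281% or less.

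On chromosome 11 all members but Os11g0540600 lay between Os11g0604900 and Os11g0702501. That stretch holds 425 genes, and 115 of them were expressed throughout WT, and 22 of these (19.1%) were members. All 5 members of chromosome 12 lay between Os12g0216500 and Os12g0229100, where 20 of 53 genes were expressed throughout WT, so that 25% of these were members. No test of this clustering was run. Members were also grouped into runs, defined as 3 or more in which each next one is at most 10 genes expressed throughout WT further on, and 4 runs took up 23 members.

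The first run spanned Os11g0604900 to Os11g0610650 and held Os11g0605100, Os11g0605300, Os11g0606300, Os11g0606400, Os11g0606500 and its end genes, 7 members among 11 genes expressed throughout WT. Os11g0605300 and Os11g0606300 were at 0 in all OX libraries, against WT means of 5.54 and 5.47 FPKM, and Os11g0606400 had at most 0.0433 FPKM in OX against 6.52 to 19.3 FPKM in the WT libraries. The 4 genes of the run that were expressed throughout WT and were no members had transcript in OX. The rule settles this in part, since any such gene must reach 0.5 FPKM in some OX library. Os11g0605500, which lies between members, averaged 11.3 FPKM in OX, 8.81 FPKM in RNAi and 9.34 FPKM in WT. Os11g0610600 averaged 9.49 FPKM in OX, 11.8 FPKM in RNAi and 13.3 FPKM in WT, and Os11g0608000 averaged 1.96 FPKM in OX, 3.69 FPKM in RNAi and 2.8 FPKM in WT. Members and these 4 genes are thus set apart by the rule itself, and some of the 4 had lower levels in OX than in WT. Genes between members that were not expressed throughout WT are described below, and some of them were near 0 in OX too.

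The second run held Os11g0639300, Os11g0639600 and Os11g0640300, and the fourth, on chromosome 12, held Os12g0216500, Os12g0218300 and Os12g0219700. In both, each gene expressed throughout WT was a member. The 3 genes of chromosome 12 were at 0 in all OX libraries, against WT means of 2.5, 5.16 and 8.19 FPKM. Beyond them, Os12g0228400 and Os12g0229100 were at 0 in all 6 OX libraries too, against WT means of 2.8 and 2.24 FPKM.

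The third run, from Os11g0685200 to Os11g0702501, was the longest, with 10 members among 16 genes expressed throughout WT. Its first 7, namely Os11g0685200, Os11g0685400, Os11g0685500, Os11g0685600, Os11g0685700, Os11g0686100 and Os11g0686250, followed each other with no other gene expressed throughout WT between them. Their WT means were 2.19, 7.45, 8.5, 20.5, 63.8, 11.8 and 4.99 FPKM, and none had more than 0.129 FPKM in an OX library. Os11g0686400, the next such gene, averaged 2.92 FPKM in OX, 3.42 FPKM in RNAi and 3.64 FPKM in WT. These means join both conditions. Before cold it was lower in OX than in WT by a log2 fold change of -0.81 (limma adjusted p = 0.040), and in the cold its change of 0.54 was not called. Further on, Os11g0696200 and Os11g0700500 averaged 33.9 and 32.6 FPKM in OX, against 33.4 and 11.7 FPKM in WT. The other 3 such genes were lower in OX, with Os11g0693800 at 4.48 FPKM in OX against 29.4 FPKM in WT, Os11g0693900 at 1.89 FPKM in OX against 3.91 FPKM in WT, and Os11g0695900 at 0.736 FPKM in OX against 2.82 FPKM in WT.

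Other genes of the runs had too little transcript in WT for the rule. Of 95 such genes 30 had a WT mean of at least 0.3 FPKM, and 10 of these were at 0 in all 6 OX libraries. Among the 10, Os11g0685300, which lies inside the unbroken stretch, averaged 2.49 FPKM in RNAi and 2.73 FPKM in WT, with 0.863 FPKM in its lowest WT library. Os11g0692400 averaged 0.0119 FPKM in OX, 6.06 FPKM in RNAi and 4.13 FPKM in WT. In 3 of the 30 genes the OX mean was above the WT mean, as for Os11g0686500 at 2.44 FPKM in OX, 0.479 FPKM in RNAi and 0.881 FPKM in WT. These genes of the runs are named for their place between members, and were chosen after their values were seen.

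**Figure D3:**
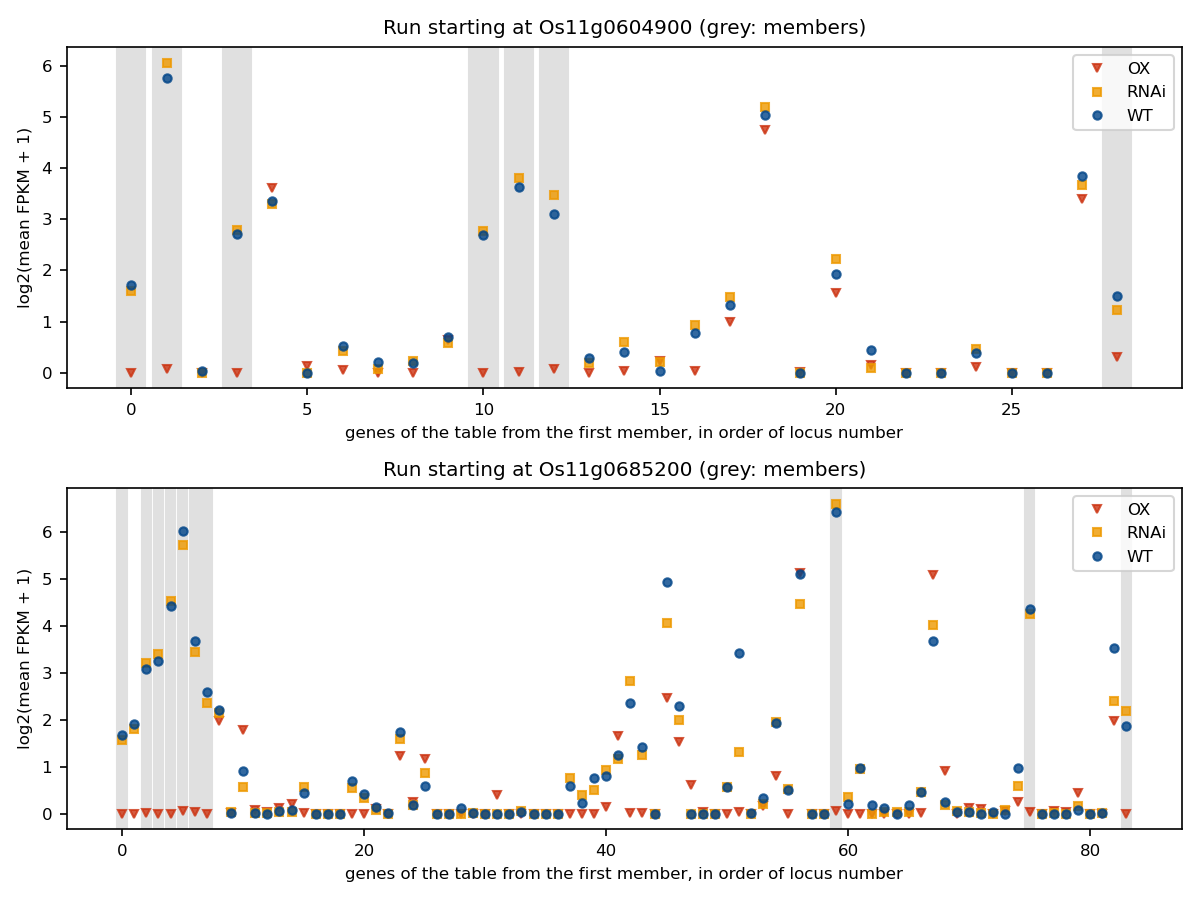
Mean level per line, as log2(mean FPKM + 1) over 6 libraries, of every gene of the table in the first run (upper panel) and the third run (lower panel), in order of locus number from the first member. Triangles are OX, squares RNAi and circles WT, and grey bands mark members. In the bands the OX triangles lie at or near 0 while squares and circles lie together, and outside them some genes have all 3 symbols at similar heights.

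Calls between OX and WT were also counted among the neighbours of members. Across the table, 4.00% of 23175 genes tested were called in OX against WT before cold (1.61% higher and 2.39% lower) and 12.9% in the cold (9.49% higher and 3.38% lower), at an adjusted p under 0.05 in limma's test on log2(FPKM + 1). Of the 99 tested genes that were no members and lay within 5 genes of one, 16 were lower and 6 higher in OX before cold, or 22.2%, against 3.63% of all tested locus IDs that were no members. In the cold 13 were lower and 10 higher, or 23.2%, against 12.7%. For chromosome 11, which holds most of the members with a locus ID, the share over all its tested genes that were no members was 7.85% before cold and 14.6% in the cold. In RNAi against WT the same neighbours gave 3.03% before cold, against 2.54%, and 21.2% in the cold, against 27.9%. The share fell with distance in OX before cold, to 17.9% within 10 genes and 14.4% within 20. Inside the runs, 10 genes were expressed throughout WT and were no members. Of these, 5 were called lower and 1 higher in OX before cold (60%), and 2 lower and 0 higher in the cold (20%). These shares describe the neighbourhood, come from the contrast that chose the members, and were not tested against each other.

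Genes with the opposite pattern lay near some members. With the lines exchanged, an FPKM under 0.5 in all 6 WT and of at least 1 in all 6 OX libraries was met by 38 genes, 22 of them with a locus ID and 7 of those on chromosome 11. Of the 22 genes 9 (40.9%) lay within 50 genes of a member, against 3.91% of the 17101 locus IDs with at least 1 FPKM in all 6 OX libraries. Within 20 genes the shares were 18.2% (4 genes) and 1.75%, and within 10 genes 13.6% (3 genes) and 0.877%. Os12g0228800, at 1.21 to 3.33 FPKM in OX, 0 to 0.356 FPKM in RNAi and 0 to 0.498 FPKM in WT, lay between the members Os12g0228400 and Os12g0229100. Os11g0539600, at 8.58 to 14.6 FPKM in OX and at 0 in every RNAi and WT library, lay 7 genes from the member Os11g0540600. Os08g0205150, with an OX mean of 2.81 FPKM, an RNAi mean of 0.0327 FPKM and a WT mean of 0.0679 FPKM, lay 11 genes from Os08g0203350. So at these places genes with more and genes with less transcript in OX lay within 11 genes of each other. Both sets were picked from the same OX and WT values, and their nearness was not tested.

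Members outside runs were mostly single genes. Os01g0604000 and Os01g0604100 are adjacent, as are Os07g0248800 and Os07g0248900, and in each pair both genes were members. Os01g0604000 was at 0 in all OX libraries against a WT mean of 3.67 FPKM, and Os01g0604100 had at most 0.119 FPKM in OX against 3.69 FPKM. Os02g0496300 and Os02g0616800 had at most 0.0435 and 0.0603 FPKM in OX, against WT means of 11.4 and 4.53 FPKM. Os04g0126500, Os08g0226600, Os09g0496250 and Os10g0102900 were at 0 in all OX libraries, against WT means of 21.7, 4.65, 6.14 and 4.78 FPKM. Os05g0507400 had at most 0.0747 FPKM in OX and 3.92 FPKM as its WT mean, and Os11g0618700 and Os11g0623700, between the first and the second run, had WT means of 3.61 and 5.48 FPKM.

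New genes, which the authors numbered without a locus ID, made up 14 of the 55 members. They were 3% of the 466 new genes expressed throughout WT, against 0.249% for locus IDs. Of the 14, 5 carried close numbers, Oryza_sativa_newGene_277, Oryza_sativa_newGene_282, Oryza_sativa_newGene_285, Oryza_sativa_newGene_293 and Oryza_sativa_newGene_309, among 18 genes of the table numbered 277 to 309, of which 7 were expressed throughout WT. Their WT means ranged from 3.21 FPKM (Oryza_sativa_newGene_282) to 11.02 FPKM (Oryza_sativa_newGene_293), and the highest of their OX values was 0.0897 FPKM. The numbers run to 8895, and the sources used here give them no place in the genome. The remaining 9 had WT means from 1.94 FPKM for Oryza_sativa_newGene_2786 to 39.1 FPKM for Oryza_sativa_newGene_7999.

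RNAi leaves, whose libraries the rule did not use, kept most of the transcripts. Of the 55 genes 44 (80%) had at least 1 FPKM in all 6 RNAi libraries, against 96.2% of all genes expressed throughout WT, and 5 had less than 0.5 FPKM in all 6. The last 6 were in between, with a lowest RNAi value of 0.363 FPKM (Oryza_sativa_newGene_3705) to 0.907 FPKM (Oryza_sativa_newGene_3745). Apart from the 5 low ones, the RNAi mean was 0.935 times the WT mean in the median member before cold (range 0.224 to 2.16) and 1.21 times in the cold (range 0.305 to 2.77). It was within 1.5 times of the WT mean for 38 of these 50 genes before cold and for 28 in the cold. These ratios were not worked out for all genes expressed throughout WT, so whether they are usual is not known. A rule that sets OX against RNAi in place of WT kept 65 genes, and 25 of its 49 locus IDs (51%) lay on chromosome 11.

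Low levels in both transgenic lines were found for 5 members. Oryza_sativa_newGene_7999 was at 0 in all 6 RNAi libraries and at most at 0.0434 FPKM in OX, against 60.8, 33.6 and 42.1 FPKM in cold WT leaves and 45.2, 18.6 and 34.1 FPKM in WT control leaves. Os08g0203350 was also at 0 in all 6 RNAi libraries, with 0 in 5 OX libraries and 0.0707 FPKM in OX control replicate 3, against 5.8, 9.3 and 4.45 FPKM in cold WT and 19.6, 14.5 and 12.1 FPKM in WT control leaves. For these genes RNAi and OX are alike and WT stands apart in every library.

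Os08g0415400 and Oryza_sativa_newGene_3302 were at 0 in every RNAi library as well, with WT means of 4.07 and 3.9 FPKM. Oryza_sativa_newGene_4099 had at most 0.0185 FPKM in RNAi and 0.0718 FPKM in OX, against a WT mean of 5.38 FPKM. Over all genes expressed throughout WT, 9 of 16935 (0.0531%) were under 0.5 FPKM in all 6 RNAi libraries, against 9.09% of the members, where both lines are set against the same WT libraries. The 5 members are themselves among these 9 genes. Neither gene of chromosome 8 belonged to a run.

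Before cold, 9 of the 55 genes were called in RNAi against WT, 2 higher and 7 lower, against 2.61% of the 23175 genes tested (0.867% higher and 1.74% lower). The rule asks for at least 1 FPKM in WT, which favours lower values in RNAi. The 5 genes just described were among the 7 lower ones. Their calls follow from being picked as under 0.5 FPKM in RNAi and at least 1 FPKM in WT, and are no test. Over the other 50 genes 2 were called higher and 2 lower. Os11g0685400 differed by a log2 fold change of -0.88 ± 0.17 (SE, adjusted p = 0.013) on the scale of FPKM + 1 and Oryza_sativa_newGene_3705 by -0.92 ± 0.21 (adjusted p = 0.033). Os11g0701700 was higher by 0.85 ± 0.19 (adjusted p = 0.031) and Os04g0126500 by 0.83 ± 0.20 (adjusted p = 0.042) in this limma fit.

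Outside the 5 genes each of these 4 calls depended on single libraries. Os11g0685400 lost its call without RNAi control replicate 2 (adjusted p = 0.0912) or 3 (0.0614) or WT control replicate 2 (0.0604). Os11g0701700 lost it without RNAi control replicate 2 (0.148) or 3 (0.103) or WT control replicate 2 (0.126), and Os04g0126500 without any of the RNAi control replicates (up to 0.159) or WT control replicate 2 (0.164). Oryza_sativa_newGene_3705 lost it without RNAi control replicate 1 or 3 or WT control replicate 2 or 3 (adjusted p from 0.0544 to 0.144). The count of 9 was 5 without RNAi control replicate 3 and 5 without WT control replicate 2. It split into 4 higher and 6 lower after quantile normalization and into 4 higher and 7 lower after median-ratio scaling, but into 0 higher and 6 lower with a pseudocount of 0.1 and 0 higher and 4 lower when the compared groups were fitted alone.

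In the cold, 25 of the 55 genes were called in RNAi against WT, 11 higher and 14 lower, against 27.6% of all genes tested (15.7% higher and 11.9% lower). The 5 genes low in both transgenic lines were among the 14 lower ones, and their calls are again no test. Over the other 50 genes 11 were called higher and 9 lower. Median-ratio scaling gave 17 higher and 13 lower among the 55. The median of the 55 log2 fold changes was 0.12, and that of all genes 0.02. Apart from the 5 low genes, Os11g0701700 was lowest, at 6.29, 8.86 and 9.82 FPKM in cold RNAi leaves against 25.7, 23.6 and 20.8 FPKM in cold WT leaves, a log2 fold change of -1.40 ± 0.19 (limma adjusted p = 0.00015).

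Os11g0685400 was highest in RNAi relative to WT, at 11.2, 13.5 and 8.19 FPKM in cold RNAi leaves against 3.73, 4.02 and 4.08 FPKM in cold WT leaves, with no overlap and a log2 fold change of 1.25 ± 0.17 (adjusted p = 0.00014). Oryza_sativa_newGene_285, Os07g0248900, Os11g0606400 and Os11g0685500 were higher by 1.06 ± 0.22, 0.96 ± 0.19, 0.91 ± 0.17 and 0.87 ± 0.17. In the first run 4 of 7 members were called higher and none lower. Of these, Os11g0606300 lost its call without RNAi cold replicate 1 or 2 or WT cold replicate 1 or 2 (adjusted p from 0.0807 to 0.116), and Os11g0606500 without WT cold replicate 1 (0.0544). In the third run 3 were called higher and 4 lower, but 3 of these 7 calls were fragile. Os11g0685600 lost its call without any single library of the groups compared (0.0518 to 0.164), as did Os11g0686100 (0.0639 to 0.136), and Os11g0685700 lost it without each of them but RNAi cold replicate 3 (0.0791 to 0.174).

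The cold response of WT could be read for all 55 genes, since the rule asked the same minimum of both WT conditions. It left out genes near 0 in either condition, and so could hold no gene switched on or off by cold. In cold against control WT leaves 37 members were called, 5 higher and 32 lower, against 45.7% of all genes tested (14.0% higher and 31.7% lower). Only 16935 genes were expressed throughout WT, as all members were. The shares of members and of all genes tested, here and in the other comparisons, thus rest on unlike sets. The median of the members was -0.68 on the log2 scale and that of all genes -0.22, relative to which directions are to be read. The split of the members was 8 higher and 22 lower after quantile normalization, where the 23175 genes gave 4303 higher and 5225 lower with a median of -0.05. It was 7 higher and 25 lower after median-ratio scaling, where all genes tested gave 4953 higher and 5267 lower with a median of -0.03. Without rescaling all genes gave 3252 higher and 7343 lower, so the background split depends on the scaling.

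The largest decrease in cold WT leaves was in Os11g0540600. It had 3.82, 2.63 and 8.68 FPKM in the cold against 9.66, 61.3 and 17.3 FPKM before it, a log2 fold change of -2.05 ± 0.53 (limma adjusted p = 0.0057), where 61.3 FPKM came from WT control replicate 2, the library that stood apart. The call held without each single library but not when the WT groups were fitted alone (adjusted p = 0.0528), and the change was -1.33 without WT control replicate 2. Os11g0605300 had 2.26, 3.69 and 2.54 FPKM in the cold against 9.53, 7.27 and 7.93 FPKM before it, a change of -1.28 ± 0.14 with no overlap between the groups. Os11g0685400, Oryza_sativa_newGene_285 and Os12g0228400 fell by 1.27 ± 0.17, 1.25 ± 0.22 and 1.24 ± 0.13, each with groups that did not overlap.

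All 7 members of the first run and all 3 of the second were called lower in cold WT leaves, with changes from -1.28 to -0.52 and from -1.10 to -0.86. In the first run Os11g0604900, Os11g0606500 and Os11g0610650 lost their calls after quantile normalization (adjusted p of 0.112, 0.186 and 0.094). These 3 and Os11g0605100 lost them with a pseudocount of 0.1 (0.0528 to 0.192), and Os11g0604900 and Os11g0606500 after median-ratio scaling (0.0648 and 0.0782). Os11g0604900, at the edge of the first run, also lost its call without WT control replicate 1 or 2 or WT cold replicate 1 or 2 (adjusted p from 0.0582 to 0.1). In the third run 5 of 10 were lower and 1 higher. Of these 5, Os11g0686100 lost its call in 8 of 13 alternatives, among them quantile normalization (adjusted p = 0.127) and median-ratio scaling (0.118). On chromosome 12 the 3 of the fourth run gave 2 lower and 1 not called. Os12g0219700, 1 of these 2, lost its call without WT control replicate 2 or 3 or WT cold replicate 1 or 3 (adjusted p from 0.0521 to 0.118). It also lost the call after quantile normalization (0.148) and median-ratio scaling (0.104).

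The 5 members that rose in cold WT leaves were Oryza_sativa_newGene_3661, Os04g0126500, Oryza_sativa_newGene_6236, Oryza_sativa_newGene_282 and Os11g0701700. Oryza_sativa_newGene_3661 had 10.5, 8.28 and 6.17 FPKM in the cold against 2.6, 1.54 and 2.47 FPKM before it, a log2 fold change of 1.53 ± 0.22 (limma adjusted p = 5.2e-05). Os04g0126500 had 39.8, 29.4 and 25.8 FPKM in the cold against 13.9, 7.98 and 13.5 FPKM before it, a change of 1.36 ± 0.20. In both the cold libraries lie above all control libraries. Oryza_sativa_newGene_6236 rose by 0.96 ± 0.17, Oryza_sativa_newGene_282 by 0.65 ± 0.18 and Os11g0701700 by 0.61 ± 0.19. Without WT control replicate 2 the change of Oryza_sativa_newGene_282 was 0.38, still called, and its call ended when the WT groups were fitted alone (adjusted p = 0.0949). Os11g0701700 lost its call without WT cold replicate 1 (adjusted p = 0.0619) or WT control replicate 2 (0.0852), where the change was 0.39. Of the 3 strongest members, Os11g0696600 at 0.05 ± 0.13 and Os11g0685700 at 0.13 ± 0.16 were not called, and Os11g0605100 fell by 0.56 ± 0.13 (adjusted p = 0.0029), a call that ended with a pseudocount of 0.1 (0.192).

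In RNAi leaves 25 of the 55 members were called in cold against control, 3 higher and 22 lower, against 45.0% of all genes tested (16.9% higher and 28.1% lower). The median of the members was -0.29 and that of all genes -0.16. Quantile normalization gave 6 members higher and 22 lower, with 4352 higher and 5884 lower over all genes tested. Median-ratio scaling gave 6 members higher and 17 lower, with 5327 higher and 4605 lower over all genes and a median of 0.00, so that the background turned over. The 5 members at or near 0 in RNAi leaves had no level there from which a response could be read.

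Oryza_sativa_newGene_6236 rose to 7.42, 7.04 and 7.97 FPKM in cold RNAi leaves, against 2.74, 1.5 and 2.08 FPKM in RNAi control leaves, a log2 fold change of 1.47 ± 0.17 (limma adjusted p = 6.9e-06). Os10g0102900 had 5.41, 2.06 and 1.34 FPKM in the cold against 6.95, 14.2 and 15 FPKM before it, a change of -1.80 ± 0.47, and its 3 WT control libraries also spread, from 3.06 to 7.62 FPKM. Os11g0701700 fell to 6.29, 8.86 and 9.82 FPKM, against 26.7, 29.6 and 26.9 FPKM before cold, by 1.64 ± 0.19. Os11g0686250 and Os05g0507400 fell by 1.18 ± 0.16 and 1.09 ± 0.19. Os12g0218300 was lower by -1.67 ± 0.57, with a call that ended without RNAi control replicate 1 (-0.85, adjusted p = 0.147), RNAi cold replicate 1 (0.0664) or RNAi cold replicate 3 (0.07).

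The difference between the cold responses of RNAi and WT was tested as an interaction in the same limma model. It was called for 17 of the 55 members, 11 more positive and 6 more negative in RNAi, against 30.5% of all genes tested (18.1% and 12.4%). Os11g0685400 rose in cold RNAi leaves by 0.86 ± 0.17 and fell in cold WT leaves, so that the responses differed by 2.13 ± 0.24 (adjusted p = 8.9e-05). Os11g0701700 went the other way, with a difference of -2.25 ± 0.27 (adjusted p = 0.00011). The levels behind it were 6.29 to 9.82 FPKM in cold RNAi leaves against 26.7 to 29.6 FPKM in RNAi control leaves, and 20.8 to 25.7 FPKM in cold WT leaves against 10.7 to 20.1 FPKM in WT control leaves.

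In Os04g0126500 the RNAi response minus the WT response was -1.95 ± 0.28, with 11.2, 17.8 and 13.1 FPKM in cold RNAi leaves against 21.5, 21.1 and 20.8 FPKM before cold. Its decrease in cold RNAi leaves (-0.58, adjusted p = 0.027) lost its call without RNAi cold replicate 1 or 3 or any RNAi control replicate, and after median-ratio scaling (0.0575 to 0.122). The difference was -2.04 ± 0.31 for Oryza_sativa_newGene_3661 and -1.42 ± 0.26 for Oryza_sativa_newGene_282, which both rose in cold WT leaves. For Os11g0686250 it was -1.08 ± 0.22, where RNAi fell by 1.18 and WT, at -0.11, was not called. The 11 genes with a positive difference were all called lower in cold WT leaves. For Oryza_sativa_newGene_285 the difference was 1.87 ± 0.32, with 0.62 in RNAi and -1.25 in WT. Os11g0606400 and Os11g0685500 had differences of 1.34 ± 0.24 and 1.23 ± 0.23, where changes of 0.36 and 0.10 in RNAi were not called and those of -0.98 and -1.13 in WT were. In Os11g0540600 the difference was 2.52 ± 0.76 (adjusted p = 0.021), with 0.47 in RNAi, not called, and -2.05 in WT. This interaction call ended without RNAi control replicate 2 (0.0591), RNAi control replicate 3 (0.0503) or WT cold replicate 2 (0.056). Calls in both lines together were counted for members only, while 45.7% of all genes tested were called in WT and 45.0% in RNAi. Whether the joint counts are unusual is therefore not known. Over both lines 14 members were called lower in each, 1 was called higher in each (Oryza_sativa_newGene_6236), and 5 were called in opposite directions. Of these 5 only Os11g0685400 kept both calls under every alternative run. Oryza_sativa_newGene_285 lost its RNAi call without RNAi cold replicate 1 or 2 or RNAi control replicate 2 or 3 (adjusted p from 0.0801 to 0.179, and a change of 0.36 without RNAi cold replicate 2), and the other 3 lost the calls described above.

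**Figure D4:**
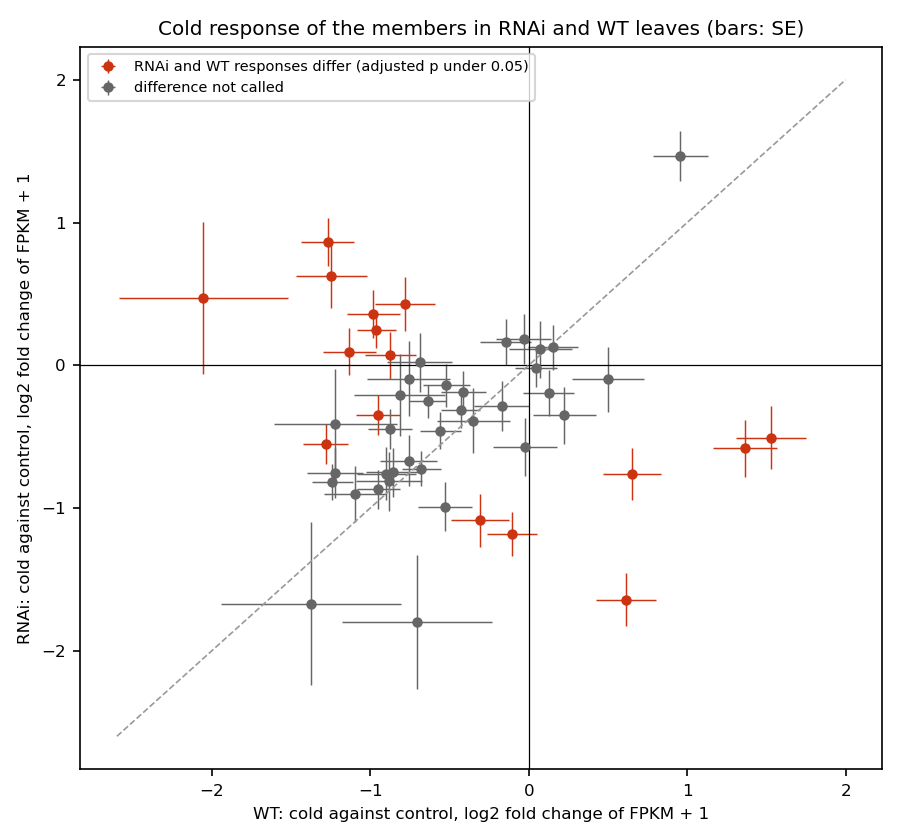
Cold response, as the log2 fold change of FPKM + 1 for cold against control, of the 50 members with transcript in RNAi leaves, in WT (across) and in RNAi (up). Bars are standard errors, red marks an interaction with an adjusted p under 0.05, and the dashed line marks equal responses. The densest group of points lies below 0 in both lines, while Os11g0685400 (0.86 in RNAi, -1.27 in WT) and Os11g0701700 (-1.64 in RNAi, 0.61 in WT) lie far from the line on either side.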

How the data were processed

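Leaf RNA of OX, RNAi and WT plants, cold-treated or not, was sequenced in 18 libraries, using Trizol and a TruSeq kit per the labels' protocols. The authors deposited 1 table of FPKM values. Per the submitters' processing notes, Bowtie 0.12.2 was among the tools. Genome build, annotation and counting tool were not given in the sources used here. Absolute depth is unknown, so no counting interval is given.

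Values were analysed as log2(FPKM + 1). The test covered 23175 genes that reached 1 FPKM in 3 or more libraries, among them, by the rule, all 55 members. A single limma 3.58.1 fit (R 4.3.3, variance trend) held the 6 groups, and p-values were Benjamini-Hochberg adjusted over all genes tested (threshold 0.05). By the rule members are near 0 in OX, so OX libraries add little scatter and members' standard errors may be too small. With the compared groups fitted alone, 31 members were called for cold in WT (40.2% of all genes tested). For cold in RNAi 21 of 50 tested were called (49.6%), and for the interaction 15 (31.1%). RNAi against WT gave 4 before cold (0.279%) and 23 in the cold (35.2%). The fit of all 6 groups was also run on simulated data in which each gene had the same spread in every group. Members are near 0 in OX, so that run is no test of their calls. Fold changes on this scale understate those of low genes. Relative depth was read from the most frequent ratio of values under 0.3 FPKM, searched between 0.6 and 1.6.

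The members, the comparisons and the genes to be named were chosen with earlier results of these data known. Named members were the 10 highest in WT and in RNAi, the ends of the runs, those low in RNAi, the 5 largest called changes per comparison and direction, and genes at the rule's limits. Others are named for their position or to complete a group of calls, after their values were seen. Alternatives were other limits, pseudocounts, filters, scalings, fits and left-out libraries.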

Additional observations from a re-analysis of the deposited data

Results flagged for a closer look

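The cold responses of RNAi and WT leaves differed by an interaction test (limma, adjusted p under 0.05) for 17 of the 55 genes. These responses differed in 30.9% of the members and in 30.5% of all genes tested, but the shares rest on unlike sets and were not tested against each other. They were more negative in RNAi for Os11g0701700 (-2.25 on the log2 scale), Oryza_sativa_newGene_3661 (-2.04), Os04g0126500 (-1.95), Oryza_sativa_newGene_282 (-1.42), Os11g0686250 (-1.08) and Os05g0507400 (-0.78). They were more positive in RNAi for Os11g0606300 (0.61), Os11g0605300 (0.73), Os11g0685200 (0.94), Os08g0203350 (1.15), Os11g0639600 (1.20), Os07g0248900 (1.21), Os11g0685500 (1.23), Os11g0606400 (1.34), Oryza_sativa_newGene_285 (1.87), Os11g0685400 (2.13) and Os11g0540600 (2.52). For Os08g0203350, which was at 0 in all RNAi libraries, the difference is the WT response alone, and the call ended with a pseudocount of 0.1 (adjusted p = 0.0539). The call of Os05g0507400 ended in 14 of 19 alternatives, among them each left-out library but WT cold replicate 3 and WT control replicate 3, with an adjusted p up to 0.0974. That of Os11g0606300 ended in 9 of 19, with an adjusted p up to 0.111, among them without RNAi cold replicate 1 or 2, RNAi control replicate 3, WT cold replicate 1 or 2 or WT control replicate 1 (0.0638 to 0.077).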

How the results depend on the processing

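The number of members was 55, between 44 and 79 with other limits for OX or a lower one for WT, 34 with a WT minimum of 2 FPKM, and 55 to 59 without any 1 library. Runs held 17 to 31 members with other definitions. Members under 0.5 FPKM in all RNAi libraries numbered 5 with each other limit and left-out library. For RNAi against WT before cold, the count of 9 was 4 when the compared groups were fitted alone, 4 among the 50 members with transcript in RNAi (an alternative chosen after the data were seen), and 5 to 12 without any 1 library. The counts of the remaining comparisons stayed within 1.5 times of 37, 25, 25 and 17, and ranged over left-out libraries from 32 to 37 for cold in WT, 19 to 25 for cold in RNAi, 18 to 24 for RNAi against WT in the cold and 14 to 19 for the interaction. With the replicate number as a block they were 37, 24, 7, 23 and 16, in the order cold in WT, cold in RNAi, RNAi against WT before cold and in the cold, and the interaction. The numbers pair no plants in the labels, and 4 of 18 same-numbered RNAi and WT pairs had deviations correlated over 0.1 (range -0.378 to 0.307), with the same number correlating best in 5 of 18. Of 113 called values of members 73 stayed called in every alternative, and none changed sign. The cause of these changes was not tested. Depth limits what can be said of levels under 0.5 FPKM, since the reads behind them are unknown.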
